A study of Mus musculus with 4 samples.

Results

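The circadian clock genes of the sciatic nerve were compared between mice that carry a human amyloidogenic transthyretin transgene and their controls. The set holds 10 genes of the 50593 that the expression table lists, taken by their symbols: the activators Arntl (also called Bmal1) and Clock, the repressors Per1, Per2, Per3, Cry1 and Cry2, the nuclear receptors Nr1d1 and Nr1d2 (REV-ERB alpha and beta), and the output factor Dbp. Each symbol matched 1 gene, and all 10 had a mean over the groups of at least 1 FPKM (fragments counted on a gene, per kilobase of its transcript and for equal library depth).

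Total RNA of sciatic nerve, the large peripheral nerve of the hind limb, was sequenced from 2 HSF V30M mice and 2 HSF WT mice, all 6 months old and of strain 129S1/SvImJ. HSF V30M mice carry a human TTR V30M transgene, lack endogenous Ttr and are heterozygous for a deletion of Hsf1, the gene of heat shock factor 1. HSF WT mice have the same heterozygous Hsf1 deletion with their own Ttr and no transgene. By the study's methods the deletion is thus shared by both groups, although the Hsf1 transcript itself was lower in HSF V30M, at 7.94 FPKM against 14.95 FPKM. The groups differ in the transgene and in endogenous Ttr together, whose parts cannot be told apart. The deposited table gives 1 FPKM estimate by the authors for each gene and group, and none for each mouse. No spread between mice can therefore be computed, no test between genotypes was possible, and every ratio below compares 1 pooled value with 1 pooled value with no replicate check.

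The mammalian clock is a delayed feedback loop of transcription. The proteins of Arntl and Clock form a dimer that binds E-box elements and drives the Per and Cry genes, whose proteins return to inhibit it. In a second loop the same dimer drives Nr1d1 and Nr1d2, whose proteins repress Arntl through REV-ERB/ROR elements (RORE), while Dbp and its relatives act through D-boxes. In tissues with a running clock the transcripts of Nr1d1, Dbp and the Per genes therefore peak at a phase far from that of Arntl, and their levels depend on the hour at which tissue is taken. The mice were kept in a light and dark cycle. The hour of collection is not given in the sources used here, so whether it differed between the groups was not tested, and it cannot be told apart from genotype.

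Letter matches to the elements of these loops are shown first. They are given for the members with a match near a start site and for Ciart, an E-box repressor from the second-loop list below. Sequences are from RefSeq for GRCm38, 5′ to 3′ on the strand of the gene, with the element in capitals.
Per1, E-box, chr11:69098743-69098828, plus strand: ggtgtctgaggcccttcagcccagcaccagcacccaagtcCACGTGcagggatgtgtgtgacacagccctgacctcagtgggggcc
Cry1, E′-box and then E-box, chr10:85185069-85185173, minus strand: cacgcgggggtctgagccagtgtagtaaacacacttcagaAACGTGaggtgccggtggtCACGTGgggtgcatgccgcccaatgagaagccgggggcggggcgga
Cry2, E′-box, chr2:92434190-92434275, minus strand: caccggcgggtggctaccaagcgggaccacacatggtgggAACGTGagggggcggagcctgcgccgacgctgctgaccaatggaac
Nr1d1, E′-box, chr11:98775360-98775445, minus strand: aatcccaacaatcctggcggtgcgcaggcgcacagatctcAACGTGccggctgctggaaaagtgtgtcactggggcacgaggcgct
Per3, D-boxes, chr4:151044776-151044910, minus strand: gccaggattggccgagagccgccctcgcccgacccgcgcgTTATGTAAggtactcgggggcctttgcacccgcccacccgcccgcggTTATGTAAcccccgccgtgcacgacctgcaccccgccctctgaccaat
Ciart, E-boxes, chr3:95882255-95882384, minus strand: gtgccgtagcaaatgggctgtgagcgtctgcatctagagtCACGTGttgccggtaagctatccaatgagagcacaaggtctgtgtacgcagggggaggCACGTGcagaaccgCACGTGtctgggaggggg
Arntl, RORE, chr7:113207530-113207558, plus strand: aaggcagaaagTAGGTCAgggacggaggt

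The windows searched ran from 250 bases before to 50 bases after each RefSeq start, and 13 windows were found for 9 of the 10 members, Per2 being the one not matched. Both strands were searched. The E-box CACGTG lay 166 bases before a start of Per1 and 60 bases before that of Cry1, and 7.15% of all 32851 windows held one. The E′-box CACGTT, which reads AACGTG on the other strand, lay 79 bases before the start of Cry1, 166 before that of Cry2 and 28 before that of Nr1d1, against a share of 4.68% of all windows. The D-box, searched as TTACGTAA and TTATGTAA, was the rarest of the 6 motifs, in 1.06% of all windows, and the window of Per3 held 2 copies, 205 and 158 bases before the start. The RORE, searched as TAGGTCA and TGGGTCA, was in 6.45% of all windows and lay 30 bases after the second of the Arntl starts, inside the first exon. In Ciart the E-boxes lay 116, 58 and 44 bases before the start. The stretch of Per1 lies downstream of the first GENCODE start of the gene and outside its exons, and those of Per3, Cry1, Cry2, Nr1d1 and Ciart lie before the gene as GENCODE draws it. The RefSeq starts of Cry2 and Nr1d1 were not matched to the start of a GENCODE transcript. No printed motif shares bases with another. No window of Dbp, Clock or Nr1d2 held any of these letters. The cAMP response element TGACGTCA, in 1.79% of all windows, and the heat shock element, searched as GAANNTTC and TTCNNGAA and found in 15.1%, were in none of the member windows. A match is a description of letters, and binding was not measured.

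**Figure D1:**
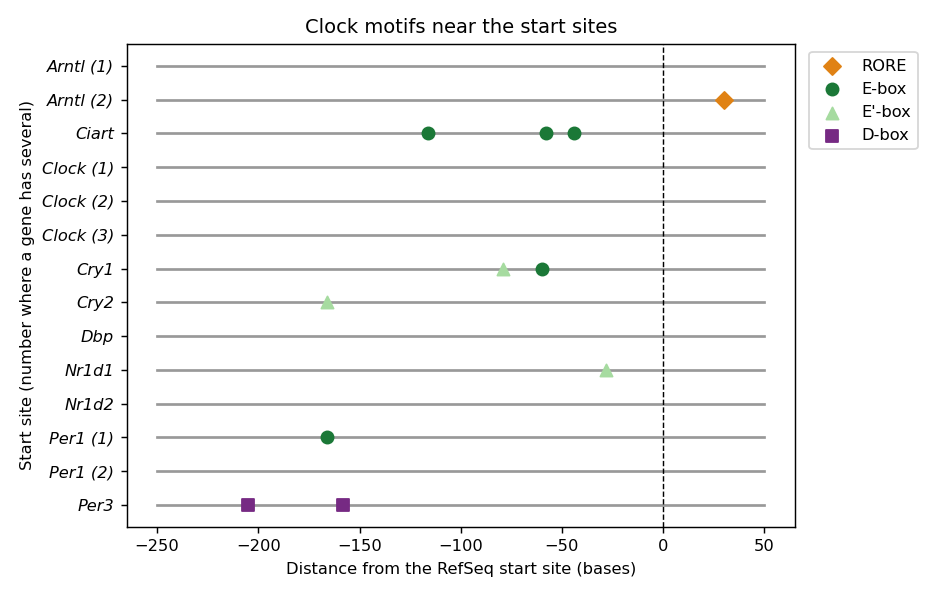
Position of clock motifs in the RefSeq windows of 9 members and Ciart. The x axis is the distance from the start site in bases, from 250 before to 50 after, each grey line is a window, and symbols mark the motifs. Matches lie before the start in Per1, Per3, Cry1, Cry2, Nr1d1 and Ciart, and 30 bases after a start in Arntl.

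In the nerves of HSF V30M mice, the Per genes, Nr1d1 and Dbp stood higher than in HSF WT, and Arntl stood lower. Dbp was 4.21-fold, Per2 3.18-fold and Per1 2.60-fold the HSF WT level, while Arntl was at 0.527 of it. The Cry genes and Clock were within a fold of 1.5. The groups could be compared only as 1 value each, and in bulk tissue fewer cells of a type and less RNA per cell cannot be told apart.

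**Figure D2:**
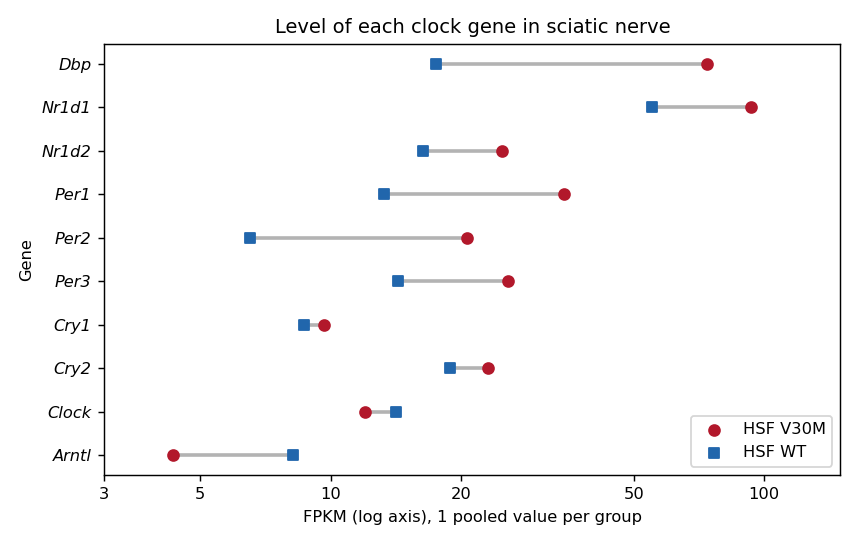
FPKM of the 10 clock genes, on a log x axis, with 1 pooled value for HSF V30M (red circles) and 1 for HSF WT (blue squares) joined by a line. Dbp and Per2 have the longest lines, with HSF V30M to the right, and in Arntl and Clock HSF V30M is to the left. No error bars are drawn because no values per mouse were given.

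Counts below use log2((HSF V30M + 1) / (HSF WT + 1)), called the log2 ratio, and a gene is past the fold when this lies beyond a fold of 1.5. By this rule 5 of the 10 members (50%) were higher in HSF V30M, beside 8.22% of the 15620 genes with a mean of at least 1 FPKM. One member (10%) was lower, beside 8.44% of those genes. The members were chosen with earlier results of these data known, so these shares are descriptions. The 4 members not past the fold were Cry1, Cry2, Nr1d2 and Clock. The median log2 ratio of the members was 0.66, with a range from -0.79 to 2.01, against 0.0030 for all 15620 genes, of which 7876 lay above 0 and 7744 below. With a minimum mean of 5 FPKM the members gave the same counts, because all had a mean above that, beside 7.17% of genes higher and 6.33% lower. With a fold of 2 in place of 1.5, Dbp, Per2 and Per1 were past it, 3 members, beside 3.98% of genes higher, and no member was lower, beside 3.94% of genes.

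**Figure D3:**
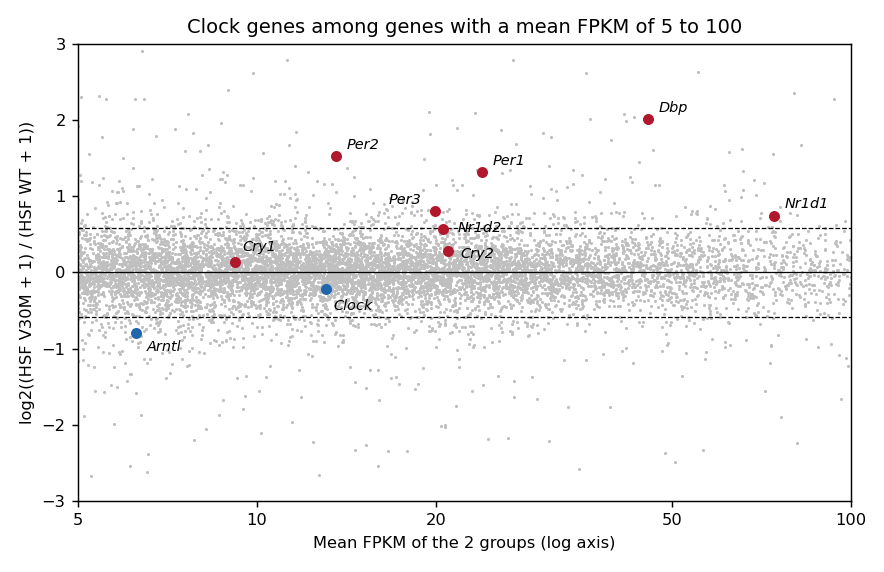
Log2 ratio (y axis, HSF V30M against HSF WT, from FPKM + 1) against mean FPKM (x axis, log scale) for the 9408 genes with a mean of 5 to 100 FPKM, with the clock genes in colour. Dashed lines mark a fold of 1.5, and 277 genes lie beyond the y axis at a log2 ratio over 3 in size. Dbp, Per2 and Per1 lie above most genes of like level and Arntl below.

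The Per genes encode the period proteins, the core of the repressor complex. Per1 (chr11:69095217-69109960, plus strand) was at 34.5 FPKM in HSF V30M and 13.3 FPKM in HSF WT, and its log2 ratio of 1.32 was above that of 97.3% of the genes compared. Per2 (chr1:91415982-91459324, minus strand) was at 20.7 and 6.51 FPKM, with a log2 ratio of 1.53, above 97.6% of genes. Per3 (chr4:151003652-151044665, minus strand), the paralog with the least part in keeping the rhythm, was at 25.7 and 14.3 FPKM, with a log2 ratio of 0.80. All 3 paralogs were thus higher in HSF V30M, but not by the same amount. The linear fold was 2.60 for Per1, with a 95% counting interval of 2.43 to 2.79. It was 3.18 for Per2, with an interval of 2.92 to 3.46. It was 1.80 for Per3, with an interval of 1.69 to 1.91. None of these intervals overlapped another, but they cover counting error only and not the spread between mice. Together the 3 genes came to 80.9 FPKM in HSF V30M, 2.37-fold the 34.1 FPKM of HSF WT. Per1 stood at 1.67 times Per2 in HSF V30M and 2.04 times in HSF WT, while Per3 went from 2.20 times Per2 in HSF WT to 1.24 times in HSF V30M. Per2 was the lowest of the 10 members in HSF WT and at place 7 from the top in HSF V30M.

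The intervals rest on the number of fragments behind each value. Among weakly expressed genes with a single transcript, 243 of 314 FPKM values in HSF V30M (within 0.005 FPKM) and 1171 of 1223 in HSF WT (within 0.1%) could be written as 1 or 2 fragments from a pair of steps, taken as what 1 fragment adds in either library. In each group the pair was chosen to match the most values, and the number that would match by chance was not estimated. The HSF V30M values are rounded to 2 decimals, so matches there are less exact, and all fragment numbers and intervals rest on these steps. For transcripts of 1 kilobase of effective length these steps were 0.0391 and 0.0460 FPKM in HSF V30M and 0.0481 and 0.0647 FPKM in HSF WT. From the length of the principal transcript, about 2755 fragments stood behind Per2 in HSF V30M and 664 in HSF WT. The fewest among the members were those of Arntl, 277 to 284 in HSF V30M and 402 to 412 in HSF WT. Depth was therefore enough to set most member ratios apart from 1 by counting error alone, the exception being Cry1.

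**Figure D4:**
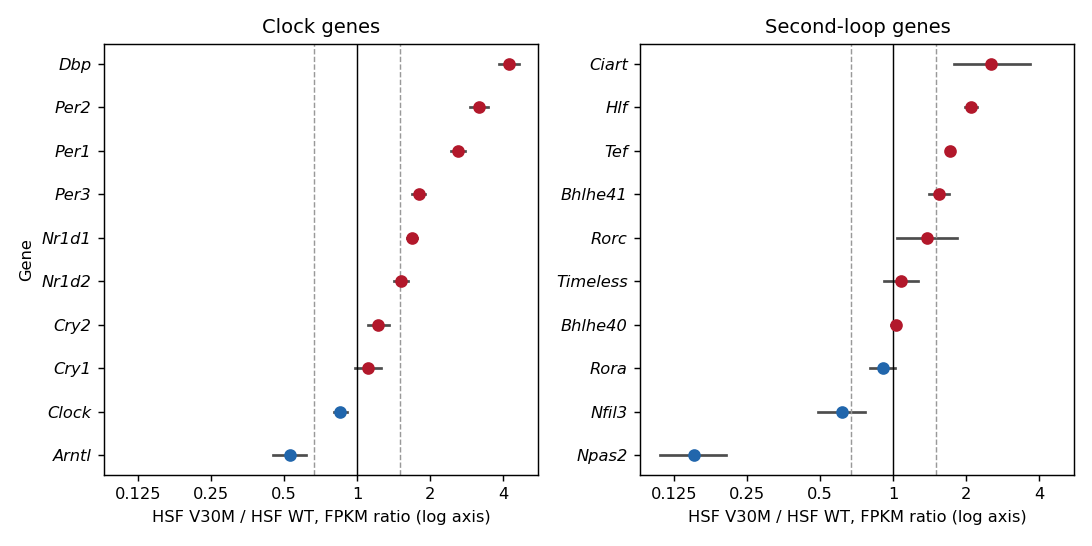
Linear FPKM ratio of HSF V30M over HSF WT (x axis, log scale) for the clock genes and for the second-loop genes with a mean of at least 1 FPKM. Bars are 95% intervals for counting error only, not for the spread between mice, and dashed lines mark a fold of 1.5 either way. Dbp, Per2, Per1, Ciart and Hlf lie furthest to the right and Npas2 and Arntl furthest to the left.

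The cryptochromes, the partners of the period proteins and the stronger repressors of the dimer, stood closer to their HSF WT levels. Cry1 (chr10:85131700-85185064, minus strand) was at 9.66 FPKM in HSF V30M and 8.69 FPKM in HSF WT, a fold of 1.11 with a counting interval of 0.984 to 1.26. Cry2 (chr2:92403646-92434043, minus strand) was at 23.0 and 18.8 FPKM, a fold of 1.22 with an interval of 1.11 to 1.35. Their log2 ratios of 0.14 and 0.28 exceeded those of 65.9% and 78.5% of genes, so neither stood far from the middle. Their sum was 32.7 FPKM in HSF V30M and 27.5 FPKM in HSF WT, 1.19-fold higher, against 2.37-fold for the Per genes. Cry2 was 2.17 times Cry1 in HSF WT and 2.39 times in HSF V30M. Its exons share 295 of 6320 bases (4.67%) with D930015M05Rik on the other strand, which was at 2.75 and 1.21 FPKM.

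Nr1d1 and Nr1d2 encode the heme-binding REV-ERB receptors, repressors that compete with the ROR activators at the RORE. Nr1d1 (chr11:98767932-98775333, minus strand) was the most highly expressed member in both groups, at 93.2 FPKM in HSF V30M and 55.1 FPKM in HSF WT. Its fold was 1.69, with a counting interval of 1.61 to 1.77, and its log2 ratio was 0.75. Nr1d2 (chr14:18204054-18239127, minus strand) was at 24.8 and 16.3 FPKM, with a log2 ratio of 0.57. That lies just under a fold of 1.5, and the linear fold of 1.52, with an interval of 1.42 to 1.62, lies just over it, so whether Nr1d2 is counted depends on the added 1 FPKM. It is also past the fold, which makes 6 members higher in place of 5, when the groups are scaled to the sum of FPKM without short genes, where its log2 ratio was 0.63. The receptors kept nearly the same proportion, Nr1d1 being 3.38 times Nr1d2 in HSF WT and 3.76 times in HSF V30M. The exons of Nr1d1 share 263 of 3077 bases (8.55%) with those of Thra, the thyroid hormone receptor gene on the other strand. Whether the libraries kept strand is not given in the sources used here, so reads from the shared bases cannot be told apart. Thra was at 94.2 and 81.1 FPKM, a log2 ratio of 0.21, and Nr1d1 relative to Thra went from 0.679 in HSF WT to 0.989 in HSF V30M.

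Dbp, the D-box binding protein of the PAR bZIP family and a direct target of the dimer, had the highest ratio of the members. Dbp (chr7:45705088-45710203, plus strand) was at 73.7 FPKM in HSF V30M, from about 2853 fragments, and at 17.5 FPKM in HSF WT, from about 519. The fold was 4.21, with a counting interval of 3.83 to 4.63, and the log2 ratio was 2.01. Among the 10205 genes with a mean of at least 5 FPKM, 180 had a higher log2 ratio than Dbp, 232 than Per2 and 258 than Per1. The exons of Dbp share 539 of 2993 bases (18%) with those of Sphk2, a sphingosine kinase gene on the other strand. Sphk2 was at 15.8 FPKM in HSF V30M and 13.8 FPKM in HSF WT, so that Dbp stood at 4.67 times Sphk2 in HSF V30M and 1.27 times in HSF WT.

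The activators stood on the other side. Arntl (chr7:113207465-113314126, plus strand), whose loss by itself abolishes behavioural rhythm, was at 4.32 FPKM in HSF V30M and 8.20 FPKM in HSF WT. Its level in HSF WT was 1.90 times that in HSF V30M, with a counting interval of 1.62 to 2.22, and its log2 ratio of -0.79 was above that of 5.55% of genes. Among genes with a mean of at least 5 FPKM, 410 had a lower log2 ratio. Clock (chr5:76209868-76304792, minus strand), the histone acetyltransferase partner of Arntl whose transcript cycles weakly in most tissues, was at 12.01 and 14.11 FPKM, a fold of 0.851 with an interval of 0.799 to 0.907. Clock was 1.72 times Arntl in HSF WT and 2.78 times in HSF V30M. Exon bases of Arntl shared with Gm45355 on the other strand came to 33 of 7523 (0.439%).

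The order of the levels differed between the groups. In HSF WT it ran, from the highest, Nr1d1, Cry2, Dbp, Nr1d2, Per3, Clock, Per1, Cry1, Arntl and Per2. In HSF V30M it ran Nr1d1, Dbp, Per1, Per3, Nr1d2, Cry2, Per2, Clock, Cry1 and Arntl. Neighbours in these orders cannot be set apart by a spread between mice, since none was given. Cry2 stood at place 2 in HSF WT and place 6 in HSF V30M, and Per1 at places 7 and 3.

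Ratios of members within a group do not depend on how the groups were scaled to each other. Every one of the 6 genes of the phase opposite to Arntl stood higher relative to Arntl in HSF V30M. The ratio of Dbp to Arntl was 2.13 in HSF WT and 17.1 in HSF V30M, a 7.99-fold difference. The ratio of Per2 to Arntl was 0.794 in HSF WT and 4.79 in HSF V30M, so Per2 was below Arntl in one group and well above it in the other. For Per1 the ratio was 1.62 and then 7.99, and for Per3 1.74 and then 5.94. For the receptors that repress Arntl, the ratio of Nr1d1 was 6.72 in HSF WT and 21.6 in HSF V30M, and that of Nr1d2 was 1.99 and 5.74. These 6 ratios share the value of Arntl in each group and are not independent of each other.

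**Figure D5:**
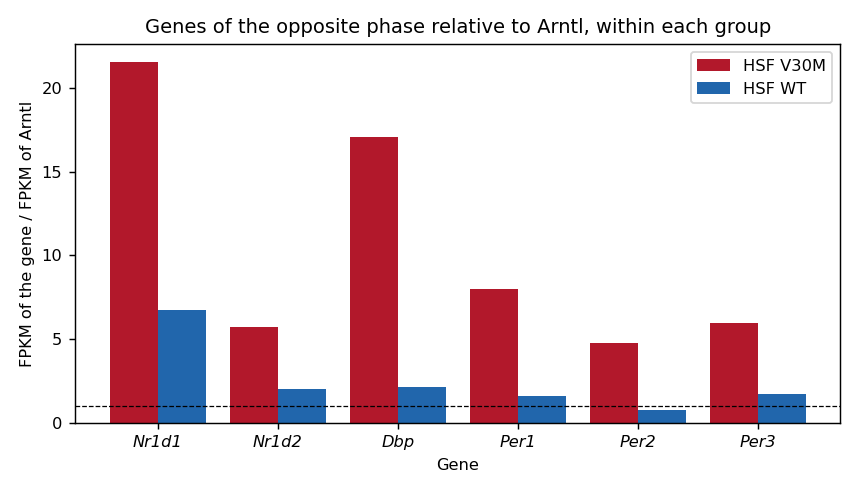
FPKM of Nr1d1, Nr1d2, Dbp, Per1, Per2 and Per3 divided by that of Arntl, within HSF V30M (red) and HSF WT (blue). The dashed line marks a ratio of 1, each bar is a ratio of pooled values with no error available, and in all 6 genes the HSF V30M bar is higher, from 2.88-fold in Nr1d2 to 7.99-fold in Dbp.

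Grouped by the elements they are best known for, the 6 members read through E-boxes and D-boxes (Per1, Per2, Per3, Nr1d1, Nr1d2 and Dbp) had a median log2 ratio of 1.06, all were above 0 and 5 were past the fold, against the 8.22% of all genes given above. The Cry genes have E-boxes too, and with both of them added the 8 genes had a median of 0.77, a choice made after the values were seen. The 5 genes known to carry a RORE (Arntl, Clock, Cry1 and the second-loop genes Npas2 and Nfil3) had a median of -0.57, which was -0.22 with a minimum mean of 5 FPKM, where Npas2 and Nfil3 drop out. Of the 5, Arntl and Npas2 were past the fold and lower, beside 8.44% of all genes, and 4 were below 0, as were 7744 of all 15620 genes. The groups were not built alike, because second-loop genes were put in the RORE group only. The median of -0.22 is thus that of the members Arntl, Clock and Cry1 alone. The E-box repressors of the second-loop list, Ciart, Bhlhe40 and Bhlhe41, were in neither group, and of these only Ciart was past the fold. The size of the contrast between the medians therefore depends on which genes were put in each group. The grouping is textbook knowledge and was made with earlier results of these data known, so its medians are descriptions.

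The name second-loop genes is a label for a wider list, which also holds E-box repressors and a paralog of Clock. The list has 12 genes, of which 10 had a mean of at least 1 FPKM. Of these, 3 were past the fold and higher (30%, beside 8.22% of all genes), 1 was lower (10%, close to the 8.44% of all genes), and the median log2 ratio was 0.21. The list was chosen with earlier results of these data known, so its shares are descriptions. Both of the close relatives of Dbp were among the higher ones. Tef, which binds the same D-boxes, was at 136.8 FPKM in HSF V30M and 79.7 FPKM in HSF WT, and Hlf, the remaining PAR bZIP factor, was at 31.3 and 15.0 FPKM. Their log2 ratios were 0.77 and 1.02, below that of Dbp, and Tef went from 4.56 times Dbp in HSF WT to 1.86 times in HSF V30M. The sum of Dbp, Tef and Hlf was 241.8 FPKM in HSF V30M and 112.1 FPKM in HSF WT. Nfil3, which represses at the D-boxes these factors activate, was at 3.40 and 5.54 FPKM, a log2 ratio of -0.57 that is not past the fold. Dbp was thus 3.16 times Nfil3 in HSF WT and 21.7 times in HSF V30M.

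Ciart, whose protein represses the dimer and whose window holds the E-boxes shown above, was at 4.86 FPKM in HSF V30M and 1.92 FPKM in HSF WT. This rests on few fragments, 138 to 200 against 42 to 60, and the fold of 2.53 has a counting interval of 1.78 to 3.67. Npas2, a paralog of Clock that can take its place beside Arntl, was at 0.52 FPKM in HSF V30M and 3.44 FPKM in HSF WT, from about 50 and 252 fragments. Its level in HSF WT was 6.62 times that in HSF V30M, with an interval of 4.87 to 9.16. Clock, the other partner, was at 4.10 times Npas2 in HSF WT and 23.1 times in HSF V30M. The E-box repressors Bhlhe40 and Bhlhe41, also known as Dec1 and Dec2, were at 76.7 against 74.8 FPKM and at 9.86 against 6.38 FPKM. Neither was past the fold, and Bhlhe41 came close to it with a log2 ratio of 0.56. Rora, an activator at the RORE, was at 10.7 and 11.8 FPKM.

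The genes that act on clock proteins after translation, and their cofactors, were counted in the same way. These casein kinases, ubiquitin ligases and chromatin cofactors set how long the period and cryptochrome proteins last and how the dimer and REV-ERB act. Of 22 such genes, 21 had a mean of at least 1 FPKM, 1 was past the fold and higher (4.76%, beside 8.22% of all genes), none was lower, and the median log2 ratio was 0.03. The count was close to that of all genes, and it was 0 with median-of-ratios scaling or a minimum mean of 5 FPKM. The gene past the fold was Fbxl21, a ligase for the cryptochromes, at 3.69 FPKM in HSF V30M and 2.12 FPKM in HSF WT, a log2 ratio of 0.59 at the edge of the fold. The list was led in level by Ncor1, the corepressor that REV-ERB recruits, at 95.7 and 114.5 FPKM. Nono, a partner of the period proteins, was at 68.4 and 83.5 FPKM. Csnk2b, the regulatory subunit of casein kinase 2, was at 76.3 and 74.5 FPKM. Csnk1a1, a casein kinase 1 gene, was at 72.8 and 59.1 FPKM.

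Genes known as rhythmic outputs in several tissues formed a list of 23, all with a mean of at least 1 FPKM. Of these, 5 were past the fold and higher (21.7%, beside 8.22% of all genes), 1 was lower (4.35%, beside 8.44%), and the median log2 ratio was 0.16. The other 17 were not past the fold. Whether the clock or another input drove any of these differences was not tested. The list was chosen with earlier results of these data known, so its shares are descriptions. Tsc22d3, a leucine zipper protein also called Gilz, was at 84.8 FPKM in HSF V30M and 37.7 FPKM in HSF WT, with a log2 ratio of 1.15. The others that were higher were Fkbp5, a co-chaperone of steroid receptors, at 20.9 and 12.3 FPKM, Klf9 at 37.2 and 21.3 FPKM, Sgk1 at 80.6 and 49.96 FPKM, and Klf15 at 33.3 and 21.4 FPKM. The lower gene was Leo1, a subunit of the PAF1 complex of transcription elongation, at 8.35 and 16.5 FPKM. The 4 with the highest level among the rest were not past the fold: Cdkn1a, the p21 cell cycle inhibitor, was at 126.4 and 155.5 FPKM. Por, the reductase of the cytochrome P450 enzymes, was at 99.9 and 81.0 FPKM. The cold-inducible RNA-binding genes Cirbp and Rbm3 were at 64.1 against 78.3 FPKM and at 55.2 against 48.9 FPKM.

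Tissue markers also differed between the groups. Schwann cell genes were high in both groups, with Egr2, the transcription factor of myelination, at 101.8 FPKM in HSF V30M and 74.2 FPKM in HSF WT, and 5 of 7 markers above 0 in log2 ratio (summed 7783 and 7216 FPKM). All 5 skeletal muscle markers (38.6 and 142.9 FPKM summed), all 5 adipocyte markers (2149 and 2975) and all 4 B cell markers (1.79 and 18.4) were lower in HSF V30M. All 4 erythrocyte markers (137.2 and 45.2) and all 4 neutrophil markers (94.5 and 21.8) were higher. The macrophage sum (65.1 and 89.8) was lower in HSF V30M, with 3 of 4 markers below 0 in log2 ratio. Fibroblast (1848 and 1918) and endothelial (93.0 and 98.1) sums differed less, and no marker was listed at 0 in either group. The 8 immediate early genes, which respond to handling within minutes, summed to 182.9 FPKM in HSF V30M and 156.6 FPKM in HSF WT. Their median log2 ratio was 0.08, with 6 above 0 and 2 below. Nr4a1 had the largest ratio of the 8, at 45.11 and 29.65 FPKM. The part of these differences in the clock gene ratios was not tested. Hsf1, which the methods give as heterozygous in both groups, stood in HSF WT at 1.88 times its HSF V30M level, with a counting interval of 1.64 to 2.16. Equal Hsf1 levels were thus not seen, and the number of intact copies cannot be read from the transcript. Ttr was at 6.10 FPKM in HSF V30M and listed at 0 in HSF WT. For the mouse gene this is opposite to the genotypes given above, and the reason was not tested. Values were tied to the groups by the letters A and G in the sample titles. Reads of the human transgene were not counted apart.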

How the data were processed

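RNA of sciatic nerve was prepared by the authors with Ion Torrent protocols, and reads were aligned to GRCm38, the C57BL/6J genome. The submitters' processing notes name STAR, Cufflinks and Cuffdiff, and their versions and the gene annotation are not given in the sources used here. The deposited values used are the FPKM of each gene and group, estimated by the authors with Cuffdiff, 1 value over the libraries of a group. The labels list 2 mice per group, while the methods do not say whether their sample number is per group. The authors' own fold changes, p-values and q-values in the same table were not used.

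Decimal commas were read as points. For 23 genes no estimate was made because of too many alignments, and they were left out. Log2 ratios were taken after adding 1 FPKM, and genes with a mean of at least 1 FPKM were compared. The planned design foresaw a description where no values per mouse were given, and this applied, so no test was run. The members and lists were chosen with earlier results of these data known. Named are all members, every list gene past a fold of 1.5 and the 4 most expressed others of each list, with Thra, Hsf1, Ttr and tissue markers, 1 of which is not reported here. Sphk2, D930015M05Rik and Gm45355 were named as overlapping genes after their values were seen.

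Fragments were estimated as FPKM times effective kilobases of the APPRIS principal transcript (GENCODE M21), divided by the worth of 1 fragment, both libraries of a group being taken to add equally, with 200 bases taken from the length in HSF V30M and 200.5 in HSF WT. Intervals of folds are exact Clopper-Pearson intervals at 95% on those fragments. GENCODE held 50346 of the identifiers. The tools were scipy 1.17.1, pandas 2.3.3 and numpy 2.4.6 under Python 3.11.15, with figures from matplotlib 3.10.9. Only the fold rule, on large planted changes, and the search for the worth of 1 fragment were tested on simulated data. The counting intervals, motif searches and scalings were not. Alternatives were a pseudocount of 0.1 or none, a minimum mean of 5 FPKM, a fold of 2 and other scalings between the groups.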

Additional observations from a re-analysis of the deposited data

How the results depend on the processing

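Of 121 values recomputed under an alternative, 107 stayed close to the reported value, 14 moved and none reversed. A count was called close when it was equal or differed by a fold of 1.5 at most, and a count could not reverse. Dropping the minimum mean or raising it to 5 FPKM could not change the member counts, because every member had a mean above 5 FPKM. The tally is therefore not a measure of robustness. Members higher numbered 6, with Nr1d2 added, under a pseudocount of 0.1, under none and with scaling to the sum without short genes. With a fold of 2, the members past it were 3 higher and 0 lower, the rhythmic output genes 1 higher and 0 lower, and the kinase and ligase genes 0 higher. The kinase and ligase count was also 0 under median-of-ratios scaling and with a minimum mean of 5 FPKM. Lower second-loop genes numbered 2 with a pseudocount of 0.1 and 2 with none, and 0 with a minimum mean of 5 FPKM, at which the RORE median was -0.22. With Cry1 and Cry2 added, after the values were seen, the E-box and D-box median was 0.77. Without a pseudocount, an alternative chosen for the single genes after seeing the data, the difference of the Per2 to Arntl ratio between the groups was 2.59 on the log2 scale and the log2 ratio of Per2 was 1.67, which is the log2 of its linear fold and differs from the reported 1.53 by more than its counting interval reaches to either side. The other 39 of 40 recomputed member ratios moved by less than that, with Dbp between 2.01 and 2.07 and Arntl between -0.92 and -0.74. Median-of-ratios scaling left the median of all genes at 0, and scaling to the sum without short genes moved it to 0.05. No paired analysis was possible because 1 value per group and none per mouse was given, and for the same reason no replicate could be left out. Depth limits Arntl, Ciart, Npas2 and Fbxl21 most, and the spread between mice is unknown for every value.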
